A study of Mus musculus with 8 samples.

Results

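The comparison set RN2 cells treated with BBC1115 against RN2 cells treated with OTX-015, over all genes. RN2 is a mouse line of acute myeloid leukaemia on the C57BL/6J background. Its cells carry 2 introduced alleles, the MLL-AF9 fusion and a mutant NRAS, which all groups share, DMSO included. The samples were chosen by the treatment in their labels, which gave 2 libraries with BBC1115 and 2 with OTX-015, 4 of the 8 libraries in all. The other libraries were 2 with the solvent DMSO, set beside the compounds as a reference, and 2 with RVX-208. The RVX-208 libraries entered the filter on low values, the estimate of the spread and the alternative fits. Each group's libraries are biological replicates by their labels, and all come from this line. No dose, duration or batch is known from the labels, so a difference between the compounds cannot be told apart from a difference of dose or time. The table held 20484 genes, and the 9975 with at least 1 RPKM (reads per kilobase of transcript, scaled to the library's read total) in at least 2 libraries were tested.

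OTX-015 (birabresib) occupies the bromodomains of BET proteins, the pockets through which these proteins hold on to acetylated chromatin and bring in the elongation machinery of RNA polymerase II. BBC1115 is a code name, and the title of the series places it in a screen of DNA-encoded libraries for compounds against BET proteins. BET inhibitors are known in this kind of leukaemia for the loss of Myc and of other factors that keep the cells immature. The genes with the largest differences belong in part to other programmes. Cells short of sterol release the SREBP transcription factors from the endoplasmic reticulum, where INSIG proteins hold them with their escort SCAP, and SREBP then turns on the genes of cholesterol synthesis and uptake, and Insig1 itself. Cells short of amino acids or with unfolded protein phosphorylate the initiation factor eIF2, which lets ATF4 be translated, and ATF4 turns on amino acid enzymes and transporters as well as Chac1, an enzyme that breaks down glutathione.

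The upstream sequences of 4 genes of these programmes are shown because the elements read by their factors are known. The sterol element was searched as TCACNCCAC, the composite element of ATF and C/EBP factors as TGATGNAAN, the E-box as CACGTG and the CCAAT box as CCAAT, on both strands, in the RefSeq windows from 250 bases before to 50 after each gene start. Each line gives the 250 bases before the start from RefSeq on GRCm38.p6, 5′ to 3′ on the strand of the gene, with matches to any of the 4 motifs in capitals. They span chr5:28071162-28071411 on the plus strand for Insig1, chr13:119690101-119690350 on the plus strand for Hmgcs1, chr2:119350992-119351241 on the plus strand for Chac1 and chr1:191183334-191183583 on the minus strand for Atf3.
Insig1: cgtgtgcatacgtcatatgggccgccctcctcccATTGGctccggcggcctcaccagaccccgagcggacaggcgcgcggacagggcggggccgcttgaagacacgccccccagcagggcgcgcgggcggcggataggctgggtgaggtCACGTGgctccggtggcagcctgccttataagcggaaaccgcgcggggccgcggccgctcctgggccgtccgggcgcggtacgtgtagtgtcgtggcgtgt
Hmgcs1: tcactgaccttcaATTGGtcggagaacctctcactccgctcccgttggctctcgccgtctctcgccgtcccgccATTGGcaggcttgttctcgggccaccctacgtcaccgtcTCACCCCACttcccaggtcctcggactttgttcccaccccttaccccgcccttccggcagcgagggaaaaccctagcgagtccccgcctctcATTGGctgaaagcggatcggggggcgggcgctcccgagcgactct
Chac1: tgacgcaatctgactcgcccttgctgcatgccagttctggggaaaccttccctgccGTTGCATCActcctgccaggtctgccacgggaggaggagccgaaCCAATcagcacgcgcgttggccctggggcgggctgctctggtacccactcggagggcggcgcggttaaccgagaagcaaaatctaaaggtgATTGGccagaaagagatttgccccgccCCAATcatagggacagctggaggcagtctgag
Atf3: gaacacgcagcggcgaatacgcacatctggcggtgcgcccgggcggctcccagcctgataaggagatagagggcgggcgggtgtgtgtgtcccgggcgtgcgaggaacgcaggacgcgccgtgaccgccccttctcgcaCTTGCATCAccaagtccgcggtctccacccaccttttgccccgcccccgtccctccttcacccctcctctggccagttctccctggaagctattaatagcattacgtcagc
These stretches hold an E-box and a CCAAT box for Insig1, the sterol element and 3 CCAAT boxes for Hmgcs1, the ATF element and 3 CCAAT boxes for Chac1, and the ATF element for Atf3. Hmgcs1 was the only gene of the cholesterol list whose window held the sterol element. Sc5d and Msmo1 differed more between the compounds and held none. Ddit3 differed more than Atf3, and its window held a CCAAT box and no ATF element. Of 24 genes of the cholesterol list with a window, 1 held the sterol element (4.2%), 5 the E-box (20.8%) and 19 a CCAAT box (79.2%). Over the 7836 kept genes with a window these shares were 1.4%, 12.3% and 44.2%, and over all 27025 genes with a window in RefSeq they were 1.4%, 8.1% and 41.1%. Of 36 genes of the ATF4 list with a window, 11 held the ATF element (30.6%), against 2.8% of the kept genes and 4.5% of all genes, and that list was built from known ATF4 targets. A CCAAT box stood in the window of 52.9% of the 1112 genes that were higher with BBC1115 and of 38.9% of the 2316 that were lower. It also stood in 78.9% of 38 mitosis genes and 61.0% of 41 DNA replication genes, lists with more lower than higher members. The ATF element stood in 41.7% of 12 aminoacyl-tRNA synthetases, a list with about as many higher as lower members. A match is a description of these letters and not a site.

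The libraries had an estimated 10800000 to 18000000 reads. Each of the lowest values was taken as 1 read, and the most frequent depth this gave over 112 to 164 genes per library was used. Only 12 to 20 of these genes gave that depth, so the estimates are rough. With OTX-015 the estimates were 13300000 and 14600000, and with BBC1115 they were 13000000 and 15700000. The RPKM of a library summed to 409918 and 375973 with OTX-015 and to 457950 and 417284 with BBC1115, and between 9291 and 9450 genes reached 1 RPKM in these 4 libraries. Across the kept genes the correlation between replicates was 0.9934 with OTX-015 and 0.9939 with BBC1115. The 10 highest genes took 7.41% and 7.39% of the total with OTX-015 and 9.17% and 8.73% with BBC1115. Of the 8 markers of the myeloid leukaemia line all were kept, 4 were lower with BBC1115 (Myb, Spi1, Cd33 and Ptprc) and 4 did not pass, and their summed level was 1395 to 1572 RPKM with OTX-015 and 1319 to 1514 with BBC1115. Of 12 T and NK cell markers 1 was kept, with a summed level of 1.57 to 2.02 RPKM with OTX-015 and 1.53 to 1.63 with BBC1115, and Cd3d, Cd3e, Cd3g and Ncr1 were at 0. Of 10 B cell markers 1 was kept, Vpreb1, which was higher with BBC1115 (0.248 and 0.397 RPKM with OTX-015 and 1.16 and 1.01 with BBC1115), while Ms4a1 and Pax5 were at 0. Vpreb1 reached 1 RPKM in the BBC1115 libraries alone, so it was kept only through the group where it is high. Its call is tied to that filter. No erythroid marker of 12 was kept, with Gata1 at 0, and of 10 fibroblast markers 1 was kept, with Col1a2, Col3a1 and Dcn at 0. Of 10 mast cell markers 5 were kept and 1 was lower (Hdc), and the summed level was 35.6 to 38.9 RPKM with OTX-015 and 32.9 to 33.4 with BBC1115. In bulk RNA fewer cells of a kind and less RNA per cell cannot be told apart.

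Both compounds changed the transcriptome of RN2 cells strongly, and their responses differed from each other in sterol, stress, early response and progenitor genes. Of the kept genes, 1413 were higher with BBC1115 (14.2% of those tested) and 2964 were lower (29.7%), 4377 in all (43.9%), by limma with a Benjamini-Hochberg adjusted p under 0.05. Counts of list members below are to be read beside these shares. Most differences were small, with a median absolute log2 difference of 0.495 over the called genes, and 92 genes were higher (0.922%) and 261 lower (2.62%) by at least 1 on the log2 scale. Of the 5598 genes that missed the threshold, 4469 had a 95% interval of the difference within 0.5 on either side of 0. Both BBC1115 libraries lay above both OTX-015 libraries in 2574 genes (25.8%) and below both in 4504 (45.2%). Against the shared DMSO libraries, 7544 genes passed with BBC1115 (75.6%, with 26.4% higher and 49.3% lower) and 6410 with OTX-015 (64.3%, with 24.2% higher and 40% lower). The excess of lower genes depended on the scaling. Higher calls were 32.3% of all calls as deposited, 43.6% with upper-quartile scaling, 49.2% with quantile normalization and 17.8% with values scaled to TPM. The median difference of all kept genes was -0.094 as deposited and moved by -0.133 under TPM, so the medians of gene lists are given beside it. It also ran with transcript length, from -0.027 in the shortest of 4 equal groups of genes by exon length to -0.142 in the longest, and the part of length in the calls was not tested beyond a fit without the length trend, which called 1553 higher and 3318 lower.

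**Figure D1:**
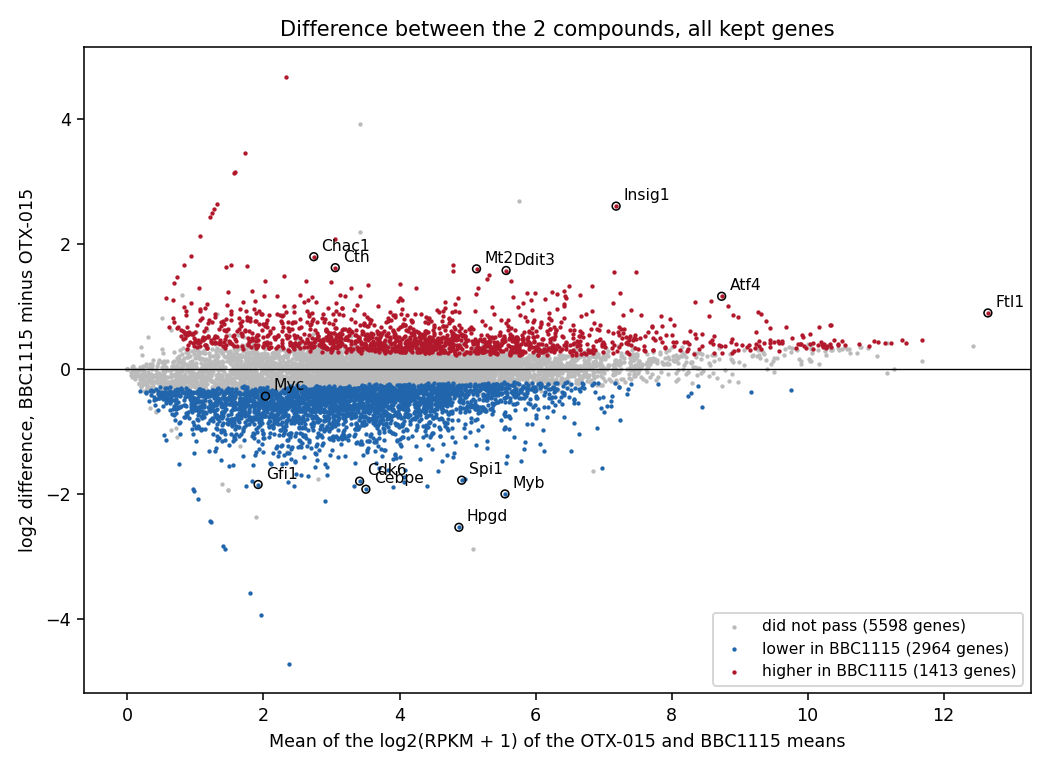
Difference between the compounds on the log2 scale (BBC1115 minus OTX-015, vertical axis) against the mean log2(RPKM + 1) of both (horizontal axis) for the 9975 kept genes. Red points passed as higher with BBC1115 (1413), blue points as lower (2964) and grey points did not pass (5598). Insig1 is far above the other genes of its level, Hpgd and Myb lie at the lower edge, and the thin slanted lines of points at low levels are genes listed at 0 with 1 compound.

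Cholesterol genes were higher with BBC1115 than with OTX-015, and Insig1, the sterol sensor that retains SCAP and is itself switched on by SREBP, had the largest difference on this side among genes with at least 5 RPKM and no library listed at 0. Insig1 (chromosome 5, 28071363 to 28078662, plus strand, GRCm38) measured 33.8 and 33.4 RPKM with DMSO, 61.2 and 55.0 with OTX-015 and 358 and 356 with BBC1115. The BBC1115 libraries stood far above all others, and the OTX-015 libraries lay above DMSO without overlap, 1.73-fold higher in the mean (limma adjusted p = 1.26e-05). Its mean was 6.15-fold higher with BBC1115 than with OTX-015, a log2 difference of 2.60 (SE 0.081, limma adjusted p = 9.53e-09). Of the 33 cholesterol genes, all kept, 21 were higher (63.6%, against 14.2% of all kept genes), 3 lower (9.09%, against 29.7%) and 9 did not pass. Their median log2 difference was 0.563 against -0.094 over all kept genes. By at least 1 on the log2 scale 11 were higher. Against DMSO, which both compounds share, the median log2 change of the list was 0.974 with BBC1115 and 0.326 with OTX-015. Their summed level ran from 1573 to 1724 RPKM with OTX-015 and from 3145 to 3252 RPKM with BBC1115. The number of higher members was between 21 and 23 under every alternative tried, libraries left out included.

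In the mevalonate arm, which builds isoprenoid units from acetyl-CoA, 8 of 10 genes were higher and none was lower, with a median log2 difference of 0.724. Hmgcs1, the synthase that makes HMG-CoA and the cholesterol gene whose window held the sterol element, measured 34.0 and 35.6 RPKM with DMSO, 43.3 and 38.3 with OTX-015 and 98.8 and 93.5 with BBC1115, a log2 difference of 1.22 between the compounds (SE 0.09, limma adjusted p = 4.09e-06). It was highest in the BBC1115 libraries without overlap, and OTX-015 lay above DMSO by less. Idi1, the isomerase of the isoprenoid unit, measured 130.1 and 121 RPKM with DMSO, 274 and 251 with OTX-015 and 568 and 546 with BBC1115 and differed by 1.09. Acat2 (0.96), Mvd (0.78), Mvk (0.67), Fdft1 (0.50), the squalene synthase, and Pmvk (0.48) followed in size. Fdps and Ggps1, which make the farnesyl and geranylgeranyl chains, did not pass, and the interval of Ggps1 was -0.14 to 0.29.

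In the sterol arm, from squalene to cholesterol, 9 of 11 genes were higher and none was lower, with a median log2 difference of 1.07. Sc5d, a sterol desaturase, measured 38.8 and 37.5 RPKM with DMSO, 57.4 and 54.7 with OTX-015 and 145 and 139.6 with BBC1115, a log2 difference of 1.33 (SE 0.081). Msmo1, a methylsterol oxidase, measured 57.3 and 49.5 RPKM with DMSO, 73.8 and 68.5 with OTX-015 and 193 and 167 with BBC1115 and differed by 1.32. In both genes the 3 groups were ordered DMSO, OTX-015 and BBC1115 with no overlap. Cyp51 (1.20), Lss (1.19), Sqle (1.16), the squalene epoxidase, and Hsd17b7 (1.07) were also higher by more than 1 on the log2 scale. Nsdhl (0.56) and Dhcr7 (0.48) were higher by less, and Tm7sf2 (adjusted p = 0.136) and Ebp (adjusted p = 0.136) did not pass in limma. Without BBC1115 replicate 2 the adjusted p of Ebp was 0.0304, and that of Tm7sf2 was 0.0301 in a fit of the 4 compared libraries alone.

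Among the 6 uptake genes 3 were higher, with a median of 0.344. Stard4, a carrier of cholesterol in the cytosol, measured 13.8 and 16.4 RPKM with DMSO, 18.7 and 17.0 with OTX-015 and 28.7 and 33.3 with BBC1115, a log2 difference of 0.76 (SE 0.11, limma adjusted p = 0.000407), and Npc2, which moves it out of lysosomes, differed by 0.44. Npc1, which works with it, measured 7.95 and 9.78 RPKM with DMSO, 15.1 and 14.1 with OTX-015 and 14.5 and 14.9 with BBC1115. Its compound groups overlapped, and the 95% interval of the log2 difference was -0.23 to 0.25.

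Of the 6 genes that sense sterol and process SREBP, Insig1 was higher and Mbtps1, Insig2 and Mbtps2 were lower. Srebf2, the factor for cholesterol genes, measured 57.1 and 51.2 RPKM with OTX-015 and 53.6 and 61.2 with BBC1115, with overlapping groups and a 95% interval of -0.16 to 0.32. Scap, the escort, measured 14.0 and 12.5 RPKM with OTX-015 and 10.6 and 11.8 with BBC1115 and did not pass (limma adjusted p = 0.161). Mbtps2, the site-2 protease, measured 5.72 and 5.81 RPKM with OTX-015 and 3.25 and 2.47 with BBC1115 and was lower by 2.01-fold, and Insig2, the second INSIG gene, measured 5.62 and 4.90 RPKM with OTX-015 and 3.43 and 3.004 with BBC1115 and was 1.64-fold lower. For Mbtps1, the site-1 protease, the log2 difference was -0.27 at an adjusted p of 0.0465, which missed the threshold in 10 of 20 alternatives. Those include leaving out OTX-015 replicate 1 (adjusted p = 0.24), BBC1115 replicate 1 (0.175), BBC1115 replicate 2 (0.0728) or either RVX-208 library (0.0746 and 0.0744), all in limma.

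**Figure D2:**
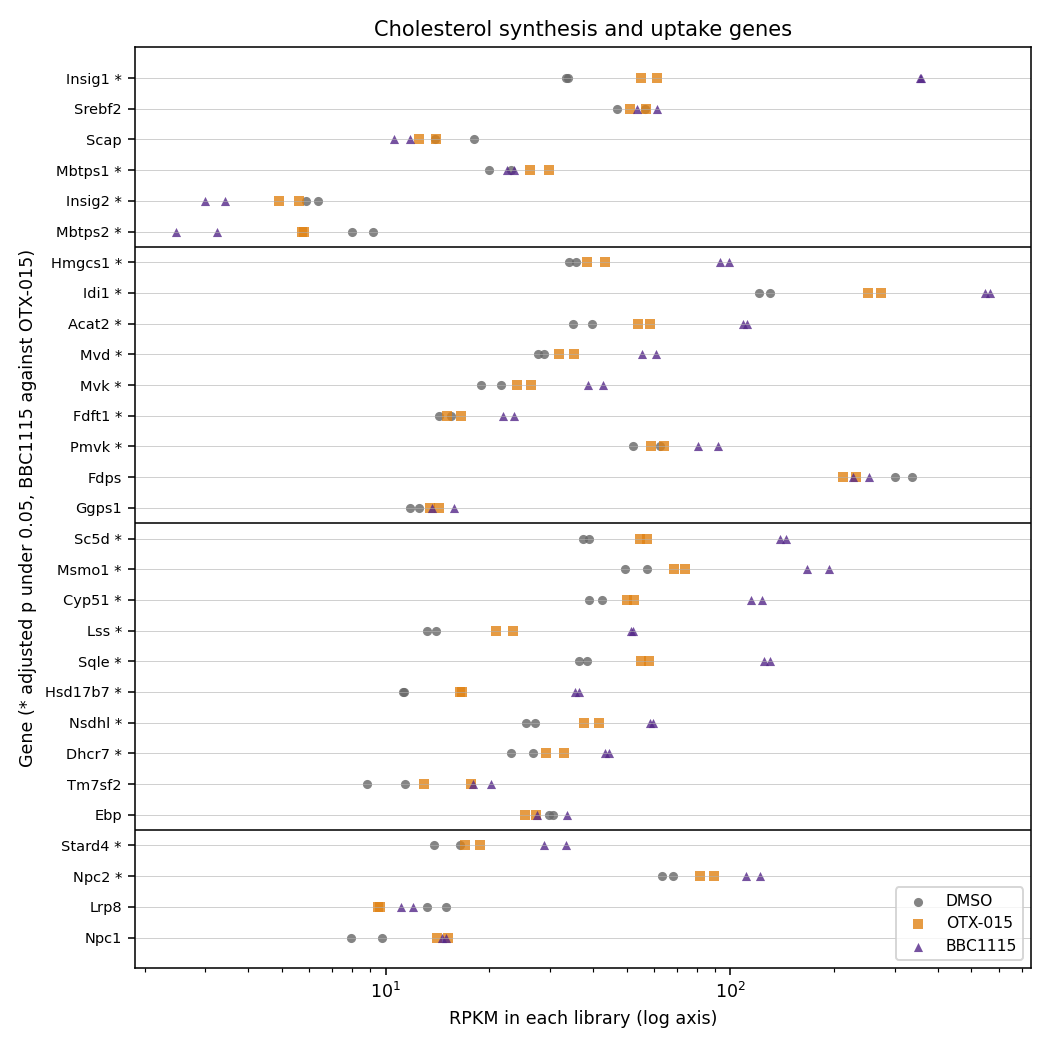
RPKM of cholesterol genes in each library on a log axis, with grey circles for DMSO, orange squares for OTX-015 and purple triangles for BBC1115. Lines part the genes into sensing, mevalonate arm, sterol arm and uptake, and a star marks an adjusted p under 0.05 between the compounds. BBC1115 stands to the right in most rows, Insig2 and Mbtps2 show the opposite order, and Npc1 and Srebf2 overlap.

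Fatty acid genes were higher in part. Of 19 listed, 16 were kept, 8 were higher and 1 was lower, with a median of 0.229. Fasn, the fatty acid synthase, measured 48.2 and 69.1 RPKM with DMSO, 103 and 90.8 with OTX-015 and 179 and 224 with BBC1115, a log2 difference of 1.05 (SE 0.15, limma adjusted p = 0.000367), with no overlap between the compounds. The desaturase Scd2 (0.80), the acyl-CoA synthetase Acsl3 (0.77), which overlaps Utp14b, and Acly (0.70), which makes cytosolic acetyl-CoA, were higher as well. Srebf1 itself measured 36.3 and 31.7 RPKM with OTX-015 and 32.0 and 31.3 with BBC1115 and did not pass (limma adjusted p = 0.39). Of 9 kept genes of the LXR list, the sterol export genes, 0 were higher and 2 were lower by limma, 22.2% of the list against 29.7% of all kept genes. The lower genes were Plin2, the coat of lipid droplets, at 51.6 and 47.4 RPKM with OTX-015 and 34.6 and 31.3 with BBC1115, and Abcg1, a sterol exporter, whose call was lost in 4 of 19 alternatives. Without OTX-015 replicate 1, BBC1115 replicate 1 or BBC1115 replicate 2 the adjusted p of Abcg1 was 0.114, 0.112 and 0.118.

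Genes of the ATF4 programme were also higher with BBC1115. Of 50 listed 41 were kept, 27 were higher (65.9%, against 14.2% of all kept genes), 2 lower (4.88%, against 29.7%) and 12 did not pass. The median log2 difference was 0.493, and 8 were higher by at least 1. Higher members numbered between 22 and 31 over the alternatives. Against the shared DMSO libraries, the median of the list was 0.328 with BBC1115 and 0.0014 with OTX-015. Chac1 (chromosome 2, 119351229 to 119354381, plus strand), whose window holds the ATF element from 194 to 186 bases before the start, measured 1.83 and 1.32 RPKM with DMSO, 2.81 and 2.38 with OTX-015 and 11.5 and 11.4 with BBC1115. The BBC1115 libraries were several times above the others, and OTX-015 lay above DMSO by 1.65-fold (limma adjusted p = 0.00658). The fold between the compounds was 4.41, a log2 difference of 1.79 on the scale of log2(RPKM + 1) (SE 0.13, limma adjusted p = 3.47e-06).

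Among the 11 kinases and factors 5 were higher and 1 lower. Atf4 (chromosome 15, 80255184 to 80257541, plus strand) measured 266 and 249.96 RPKM with DMSO, 295 and 273 with OTX-015 and 678 and 595 with BBC1115, a log2 difference of 1.16 (SE 0.097, limma adjusted p = 8.95e-06). OTX-015 lay 0.14 above DMSO on the log2 scale, and both BBC1115 libraries stood far above both other groups. Ddit3, which encodes the stress factor CHOP, measured 28.0 and 24.9 RPKM with OTX-015 and 86.5 and 75.004 with BBC1115, and is listed at 0 in both DMSO libraries, so no fold against DMSO is given. The compounds differed by 1.57 for Ddit3, which overlaps Mars, and whether reads were counted by strand is not stated. Atf3, a partner factor in the stress response with the ATF element from 111 to 103 bases before its start, measured 0.294 and 0.132 RPKM with DMSO, 1.73 and 2.15 with OTX-015 and 7.63 and 6.75 with BBC1115 and differed by 1.48. Cebpb (0.56) and Atf5 (0.39) were higher by less, and both calls were lost without OTX-015 replicate 2 (limma adjusted p = 0.102 and 0.058). Cebpg was lower by a log2 difference of -0.27, a call that was lost in 8 of 20 alternatives. Without OTX-015 replicate 1, BBC1115 replicate 1 or BBC1115 replicate 2 its adjusted p in limma was 0.159, 0.0919 and 0.167, and without RVX-208 replicate 1 or 2 it was 0.0771 and 0.0774. The 4 eIF2 kinases did not pass, with intervals of -0.18 to 0.31 for Eif2ak3, the kinase for unfolded protein, -0.12 to 0.43 for Eif2ak4, the kinase for uncharged tRNA, -0.13 to 0.25 for Eif2ak1 and -0.62 to -0.016 for Eif2ak2. The adjusted p of Eif2ak2, the kinase for double-stranded RNA, was 0.0816 in limma, and 0.0156 and 0.0165 without DMSO replicate 1 or 2.

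Of 11 kept effectors, 9 were higher and none was lower, with a median of 0.824. Trib3, a pseudokinase induced by ATF4 and CHOP, measured 1.27 and 1.40 RPKM with DMSO, 2.98 and 2.58 with OTX-015 and 9.32 and 8.78 with BBC1115, a log2 difference of 1.41. Vegfa, the angiogenic factor, measured 13.8 and 13.9 RPKM with DMSO, 19.8 and 17.6 with OTX-015 and 42.9 and 41.5 with BBC1115 and differed by 1.14. In both genes the BBC1115 libraries were the highest and the compounds did not overlap. Herpud1, a part of the degradation machinery of the endoplasmic reticulum, measured 32.8 and 33.8 RPKM with DMSO, 29.3 and 27.1 with OTX-015 and 58.3 and 55.5 with BBC1115, so that OTX-015 lay below DMSO and BBC1115 above it. Ppp1r15a, which brings phosphatase to eIF2, differed by 0.95, and Sesn2 (0.82) and Ddit4 (0.80), both brakes on mTORC1, were higher too.

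Amino acid genes split by their level against DMSO. Of the 12 kept enzymes 7 were higher and 1 was lower. Cth, which makes cysteine from cystathionine, measured 3.005 and 2.99 RPKM with DMSO, 3.84 and 3.63 with OTX-015 and 15.1 and 12.1 with BBC1115, a log2 difference of 1.62 (SE 0.12, limma adjusted p = 4.32e-06), with BBC1115 far above both other groups. Mthfd2, a mitochondrial folate enzyme, differed by 0.88 and Asns, the asparagine synthetase, by 0.62. The serine pathway genes Psat1 and Phgdh were higher with BBC1115 than with OTX-015, and below DMSO with both. Psat1 measured 214 and 211 RPKM with DMSO, 147 and 130.5 with OTX-015 and 206 and 185 with BBC1115, and Phgdh 111 and 103 RPKM with DMSO, 71.5 and 66.1 with OTX-015 and 93.8 and 86.3 with BBC1115. Shmt2, which passes serine carbon to folate, was below DMSO with both and showed no difference beyond an interval of -0.21 to 0.15. Aldh18a1, which makes the proline precursor, was lower with BBC1115 at 13.9 and 12.0 RPKM with OTX-015 and 8.57 and 9.14 with BBC1115 (log2 difference -0.50).

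Of the 7 kept transporters 6 were higher. Slc1a4, a carrier of neutral amino acids, measured 0.574 and 0.944 RPKM with DMSO, 1.55 and 1.45 with OTX-015 and 5.78 and 5.48 with BBC1115 and differed by 1.41. Slc1a5, a glutamine carrier, measured 85.7 and 78.2 RPKM with OTX-015 and 157 and 155 with BBC1115 and differed by 0.92. The chains of the large neutral carrier, Slc7a5 (0.74) and Slc3a2 (0.72), were higher together, with no overlap between the compounds. Slc7a11, the cystine carrier, measured 4.55 and 3.85 RPKM with OTX-015 and 5.44 and 4.76 with BBC1115 and did not pass (limma adjusted p = 0.11), though it did with upper-quartile scaling (0.0235) and quantile normalization (0.00391).

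**Figure D3:**
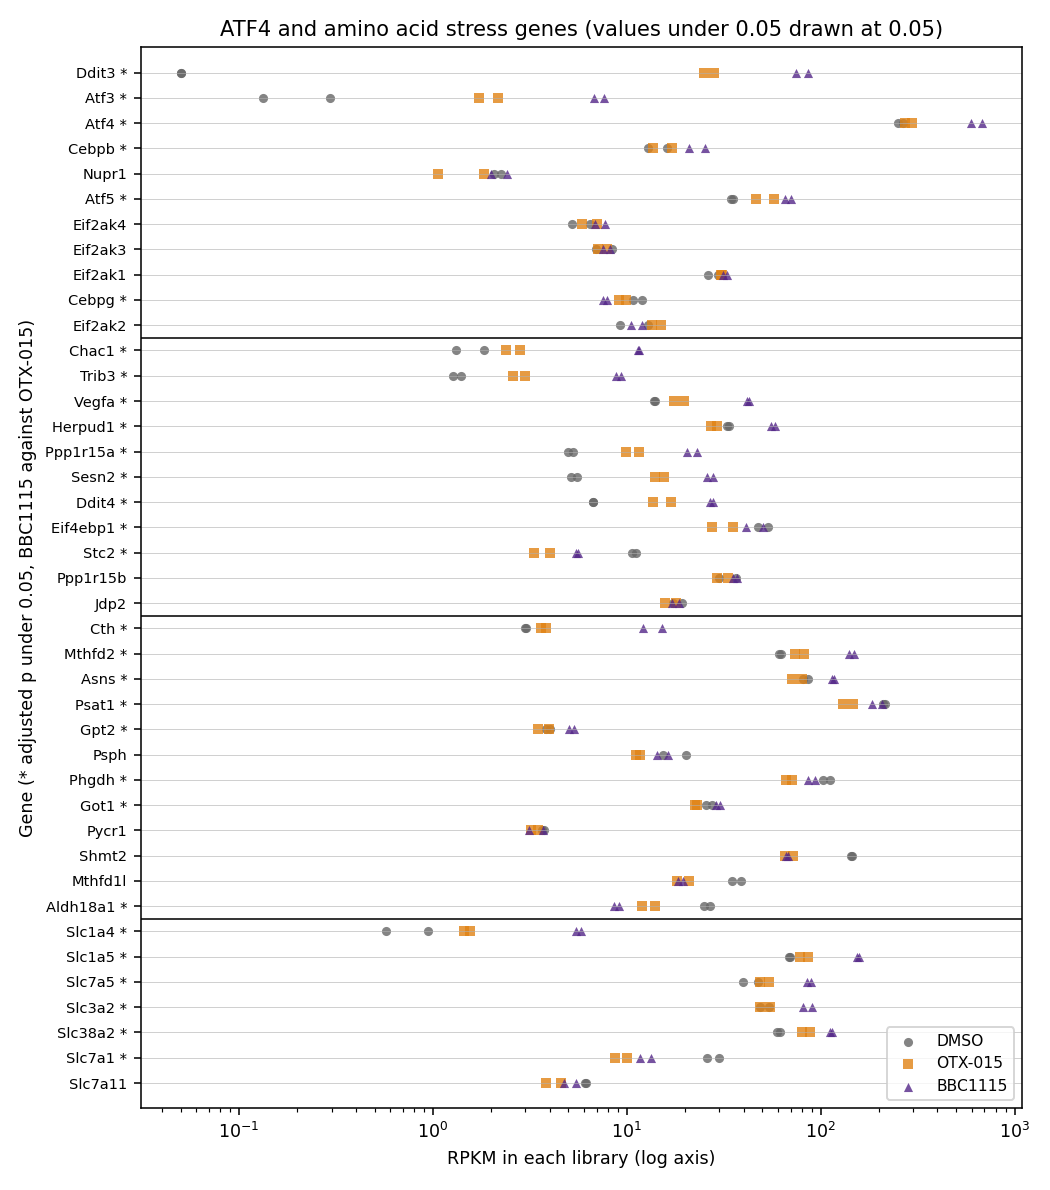
RPKM of each kept gene of the ATF4 list in each library on a log axis, with DMSO as grey circles, OTX-015 as orange squares and BBC1115 as purple triangles. Lines part the genes into factors, effectors, enzymes and transporters, a star marks an adjusted p under 0.05 between the compounds, and values under 0.05 are drawn at 0.05. Chac1, Trib3, Cth and Slc1a4 show BBC1115 well apart from both other groups, and the eIF2 kinases carry no star.

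Of the 20 aminoacyl-tRNA synthetases, several of which are ATF4 targets, 5 were higher (25%, against 14.2% of all kept genes) and 6 were lower (30%, against 29.7%), among them Nars (0.60) and Vars (-0.79), with 3 higher without OTX-015 replicate 2 and 2 without BBC1115 replicate 1. Of 21 genes of the unfolded protein response 10 were higher and 2 lower, with a median of 0.245, but 4 were higher under TPM scaling and 3 without OTX-015 replicate 2, 5 without BBC1115 replicate 1. Dnajb9, a co-chaperone of the endoplasmic reticulum, measured 11.5 and 9.56 RPKM with DMSO, 10.8 and 8.89 with OTX-015 and 25.3 and 20.1 with BBC1115 and differed by 1.13, and Hspa5, its main chaperone, measured 414 and 413 RPKM with DMSO, 535 and 494 with OTX-015 and 906 and 844 with BBC1115 and differed by 0.76. Both had BBC1115 above the other groups. Of the 16 kept heat shock genes 11 were higher and 1 lower, between 7 and 13 higher over the alternatives. Dnajb1, the co-chaperone of HSP70, measured 14.8 and 15.4 RPKM with DMSO, 30.8 and 28.3 with OTX-015 and 82.6 and 78.1 with BBC1115, a log2 difference of 1.41 (SE 0.084, limma adjusted p = 1.11e-06). The near-identical genes Hspa1b (1.09) and Hspa1a (1.00) were higher as well, and reads could be split between them.

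Antioxidant and metal genes were higher in part. In the NRF2 list 13 of 23 kept genes were higher and 3 lower, with a median of 0.291, and between 9 and 16 were higher over the alternatives. Srxn1, which restores oxidised peroxiredoxins, measured 8.93 and 9.29 RPKM with DMSO, 15.4 and 14.6 with OTX-015 and 46.9 and 46.2 with BBC1115, a log2 difference of 1.57 (SE 0.084, limma adjusted p = 5.84e-07). Gclc, the catalytic subunit of glutathione synthesis, measured 20.9 and 22.5 RPKM with DMSO, 61.2 and 56.0 with OTX-015 and 121 and 122 with BBC1115 and differed by 1.04. In both genes OTX-015 stood between DMSO and BBC1115 with no overlap. Ftl1, the ferritin light chain, measured 1884 and 1803 RPKM with DMSO, 4849.9 and 4557 with OTX-015 and 9509.7 and 8027 with BBC1115 and differed by 0.89. Hmox1 (0.83), which degrades haem, and Txnrd1 (0.73) followed. The lower members were Gsr, the glutathione reductase (-0.82), Keap1, the inhibitor of NRF2 (-0.79), and Mgst1 (-0.51), a call lost without OTX-015 replicate 1 (adjusted p = 0.185 in limma) or BBC1115 replicate 2 (0.122). Nfe2l2, the NRF2 gene, did not pass (95% interval -0.09 to 0.26). Of 5 genes of metallothioneins and zinc 3 were higher. Mt2, a metallothionein, measured 31.6 and 21.3 RPKM with DMSO, 18.6 and 19.7 with OTX-015 and 62.0 and 58.0 with BBC1115, so that OTX-015 lay below DMSO and BBC1115 above it, and the compounds differed by 1.60 (SE 0.18, limma adjusted p = 7.45e-05). The DMSO libraries of Mt2 lay apart, and OTX-015 against DMSO did not pass (limma adjusted p = 0.0645).

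On the lower side, genes of immature haematopoietic cells had the lowest median of the lists. Of 26 stem and progenitor genes 19 were kept, 15 were lower with BBC1115 than with OTX-015, 1 was higher and 3 did not pass, with a median log2 difference of -1.08, and 10 were lower by at least 1. Between 14 and 16 were lower under every alternative. Against the shared DMSO libraries the median of the list was -2.15 with BBC1115 and -1.47 with OTX-015. Myb, the factor that drives proliferation of progenitors (chromosome 10, 21124935 to 21160984, minus strand), measured 273 and 275 RPKM with DMSO, 96.6 and 88.7 with OTX-015 and 23.0 and 21.9 with BBC1115. OTX-015 lay below DMSO and BBC1115 below OTX-015, with no overlap. The mean was 4.13-fold lower with BBC1115 than with OTX-015, a log2 difference of -1.999 (SE 0.08, limma adjusted p = 7.46e-08).

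Among the 13 factors 10 were lower. Spi1, which encodes PU.1 (chromosome 2, 91082390 to 91115756, plus strand), measured 158 and 148 RPKM with DMSO, 58.8 and 50.8 with OTX-015 and 16.4 and 14.1 with BBC1115 and was 3.59-fold lower. Lmo2, an adaptor of haematopoietic factors, measured 364 and 336 RPKM with DMSO, 94.5 and 87.6 with OTX-015 and 33.6 and 30.9 with BBC1115 and was 2.82-fold lower. These genes share the order of Myb, with each group apart from the next. Ikzf1 (-1.41), Fli1 (-1.31), Lyl1 (-1.26), Etv6 (-1.17) and Erg (-1.16) were lower by more than 1 on the log2 scale, and Runx1 (-0.51), at 1.16 and 1.07 RPKM with OTX-015 and 0.441 and 0.539 with BBC1115, by less. Meis1, the partner of HOX factors, measured 10.5 and 10.6 RPKM with DMSO, 16.7 and 15.6 with OTX-015 and 12.4 and 12.7 with BBC1115 and differed by -0.34, a call lost without OTX-015 replicate 1 (limma adjusted p = 0.0598) and without BBC1115 replicate 1 (0.062). Zfpm1, the partner of GATA factors also known as FOG-1, was the member that was higher, at 2.46 and 2.82 RPKM with DMSO, 4.51 and 3.99 with OTX-015 and 6.13 and 6.52 with BBC1115. Gata2 measured 20.2 and 21.3 RPKM with DMSO, 8.43 and 7.57 with OTX-015 and 7.47 and 8.48 with BBC1115, with overlapping compounds well below DMSO, and the interval of the log2 difference was -0.22 to 0.21. Of the 6 surface genes 5 were lower, with Cd93 at 39.7 and 50.5 RPKM with DMSO, 8.37 and 8.11 with OTX-015 and 2.01 and 2.61 with BBC1115 and Cd34 at 171 and 168 RPKM with DMSO, 82.3 and 70.0 with OTX-015 and 50.1 and 49.0 with BBC1115. Kit, the receptor for stem cell factor, measured 22.7 and 25.6 RPKM with DMSO, 7.05 and 6.19 with OTX-015 and 6.01 and 6.09 with BBC1115 and did not pass (interval -0.33 to 0.11).

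Of 16 kept leukaemia oncogenes, which share Myb, Lmo2, Erg, Runx1 and Kit with the list before, 10 were lower and 3 higher, with a median of -0.484. Gfi1, a transcriptional repressor of granulocyte precursors (chromosome 5, 107716657 to 107726036, minus strand), measured 46.7 and 47.5 RPKM with DMSO, 6.42 and 5.95 with OTX-015 and 1.01 and 0.978 with BBC1115, 6.21-fold lower between the compounds (log2 difference -1.85, limma adjusted p = 2.71e-07). Cdk6, the cyclin D kinase (chromosome 5, 3341485 to 3531008, plus strand), measured 66.5 and 86.9 RPKM with DMSO, 19.6 and 18.1 with OTX-015 and 4.39 and 5.05 with BBC1115, 3.99-fold lower (log2 difference -1.79, limma adjusted p = 2.36e-06). Both were lowest in the BBC1115 libraries, and no group overlapped another. Zeb2 (-1.34) and Bcl2 (-0.89) were lower as well. The higher members were Pim1, a survival kinase, at 2.56 and 2.73 RPKM with DMSO, 6.61 and 5.96 with OTX-015 and 13.5 and 14.3 with BBC1115, Mcl1 (0.58) and Nras (0.25). Nras reads may include the engineered NRAS, which cannot be told apart here, and its call was lost in 7 of 20 alternatives and turned in 1, with an adjusted p of 0.13 without OTX-015 replicate 2, 0.11 without BBC1115 replicate 1 and 0.131 without BBC1115 replicate 2 in limma. Without RVX-208 replicate 1 or 2 it was 0.0999 and 0.0995.

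**Figure D4:**
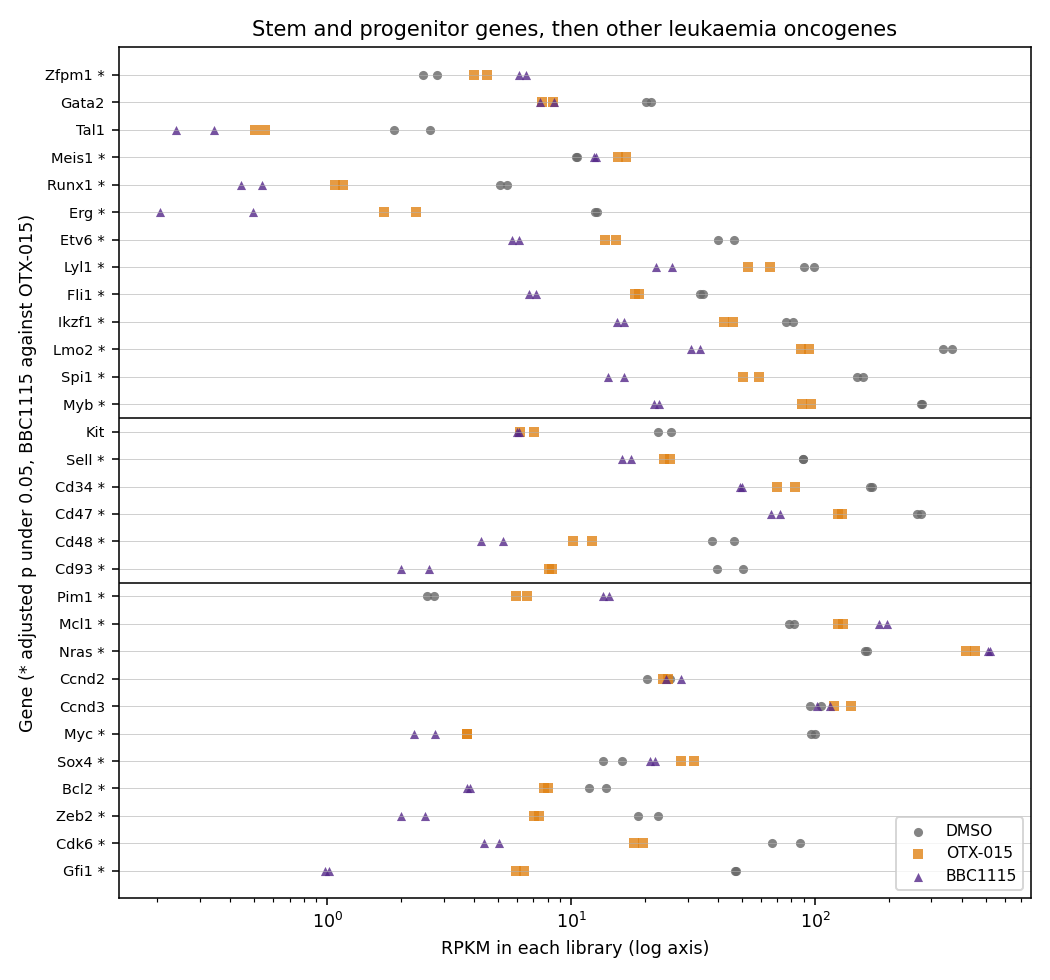
RPKM of stem and progenitor genes and of the other leukaemia oncogenes in each library on a log axis, with DMSO as grey circles, OTX-015 as orange squares and BBC1115 as purple triangles. Lines part factors, surface genes and oncogenes, and a star marks an adjusted p under 0.05 between the compounds. Myb, Spi1, Lmo2, Cdk6 and Gfi1 run from DMSO through OTX-015 to BBC1115 from right to left, Pim1 runs the other way, and Kit and Gata2 hold both compounds together below DMSO.

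Among genes with at least 5 RPKM and no library listed at 0, the largest difference on the lower side was that of Hpgd, the enzyme that inactivates prostaglandins (chromosome 8, 56294585 to 56321043, plus strand), at 346 and 315 RPKM with DMSO, 74.7 and 64.4 with OTX-015 and 11.6 and 10.8 with BBC1115. It was 6.22-fold lower with BBC1115 than with OTX-015 (log2 difference -2.53, SE 0.094, limma adjusted p = 5.07e-08), with no overlap. Cebpe, a factor of granulocyte maturation, measured 84.4 and 81.8 RPKM with DMSO, 23.8 and 18.6 with OTX-015 and 5.05 and 4.58 with BBC1115, and Cxcr4, the chemokine receptor that keeps cells in the marrow, 83.5 and 75.7 RPKM with DMSO, 32.6 and 27.9 with OTX-015 and 7.82 and 7.99 with BBC1115. Tfec (-1.81), Fes (-1.74), a myeloid tyrosine kinase, Fmnl1 (-1.88), a formin of blood cells, and Ncf1 (-1.76), a subunit of the phagocyte oxidase whose locus overlaps Gtf2ird2, were lower too. Rcsd1 was different in its relation to DMSO, at 47.2 and 51.1 RPKM with DMSO, 43.9 and 35.6 with OTX-015 and 9.65 and 10.4 with BBC1115, so that OTX-015 was close to DMSO and BBC1115 far below.

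Monocyte genes were called about as often as all kept genes. Of 26 kept 4 were higher (15.4%, against 14.2% of all kept genes) and 9 lower (34.6%, against 29.7%), with a median of -0.059. Higher members numbered 2 without OTX-015 replicate 2 and 0 without BBC1115 replicate 1. Cd14, the lipopolysaccharide co-receptor, measured 18.1 and 18.3 RPKM with DMSO, 3.06 and 2.18 with OTX-015 and 0.695 and 0.74 with BBC1115, and Tlr2 5.503 and 5.98 RPKM with DMSO, 3.57 and 3.09 with OTX-015 and 1.06 and 1.15 with BBC1115, both lowest with BBC1115. Klf4, a monocyte factor, was higher (0.711 and 0.448 RPKM with OTX-015 and 2.32 and 1.89 with BBC1115). Klf4 reached 1 RPKM in the BBC1115 libraries alone, so it was kept only through the group where it is high, and its call is tied to the filter. Of 23 kept neutrophil genes 1 was higher (4.35%) and 9 lower (39.1%), with a median of -0.037, and the lower members included Cebpe and Gfi1, with 5 lower without OTX-015 replicate 1. In the MLL and HOX list 8 of 20 kept genes were lower (40%, against 29.7% of all kept genes) and 0 higher, between 6 and 13 lower over the scalings and 5 without OTX-015 replicate 1 or BBC1115 replicate 1. Mef2c, a factor of MLL-driven leukaemia, measured 42.7 and 50.5 RPKM with DMSO, 40.6 and 37.4 with OTX-015 and 16.6 and 19.0 with BBC1115, so that OTX-015 lay below DMSO and BBC1115 below both (log2 difference between the compounds -1.09, limma adjusted p = 1.95e-05). For Mef2c, OTX-015 against DMSO did not pass (limma adjusted p = 0.0519). Hoxa7 differed by -1.05 and Hoxa10 by -0.60. Hoxa9, the HOX gene most tied to MLL fusions, measured 77.2 and 69.2 RPKM with DMSO, 98.0 and 91.1 with OTX-015 and 88.3 and 76.8 with BBC1115 and did not pass (adjusted p = 0.116 in limma), though it did under quantile normalization (0.00391) and TPM scaling (0.000882).

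Readouts often used for BET inhibition differed between the compounds by varied amounts. Myc (chromosome 15, 61985391 to 61990374, plus strand) measured 99.7 and 95.9 RPKM with DMSO, 3.75 and 3.74 with OTX-015 and 2.77 and 2.26 with BBC1115. Both compounds lay far below DMSO, BBC1115 below OTX-015 with no overlap, and the log2 difference was -0.44 (95% interval -0.64 to -0.23, limma adjusted p = 0.00351), which missed the threshold under quantile normalization (0.0769). Hexim1, the inhibitor of P-TEFb that BET inhibitors are known to raise, measured 23.9 and 22.7 RPKM with DMSO, 128 and 116 with OTX-015 and 196 and 183 with BBC1115 and was higher by 0.64 (adjusted p = 0.000195). Of 27 kept genes of BET proteins and P-TEFb 4 were higher (14.8%, against 14.2% of all kept genes) and 3 lower (11.1%, against 29.7%). Brd2 measured 63.9 and 71.7 RPKM with DMSO, 233 and 213 with OTX-015 and 462 and 476 with BBC1115, with BBC1115 above OTX-015 and both above DMSO, and differed by 1.07 (limma adjusted p = 8.22e-06), though its locus overlaps H2-DMa. Brd3 measured 15.9 and 13.7 RPKM with OTX-015 and 13.04 and 12.5 with BBC1115 and did not pass (interval -0.43 to 0.045). Larp7, which holds P-TEFb in its inactive complex, was lower at 40.7 and 40.4 RPKM with DMSO, 34.5 and 31.1 with OTX-015 and 16.7 and 18.8 with BBC1115, and so was Nelfcd, a pausing factor whose locus overlaps Ctsz, at 22.6 and 22.6 RPKM with DMSO, 21.0 and 19.4 with OTX-015 and 9.97 and 11.0 with BBC1115. For both, OTX-015 lay below DMSO without overlap, and BBC1115 below both. Against DMSO, OTX-015 did not pass for Nelfcd (limma adjusted p = 0.142) and passed for Larp7 (0.0167).

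Of 13 kept genes that BET inhibitors are known to induce, 7 were higher with BBC1115 than with OTX-015 and 3 lower, with a median of 0.466. Tob1, an antiproliferative protein, measured 5.01 and 4.51 RPKM with DMSO, 49.7 and 47.4 with OTX-015 and 120.1 and 110.5 with BBC1115 and differed by 1.23. Cdkn1a, which encodes the cell-cycle inhibitor p21, measured 66.2 and 66.7 RPKM with DMSO, 145 and 130.2 with OTX-015 and 255 and 247 with BBC1115 and differed by 0.87. Both were ordered DMSO, OTX-015 and BBC1115 without overlap. Sat1, which breaks down polyamines, differed by 0.90 and Serpini1 by 1.17. Zmynd8, a reader of acetylated histones, was lower at 25.5 and 30.6 RPKM with DMSO, 12.4 and 11.1 with OTX-015 and 3.59 and 4.19 with BBC1115, and Arrdc4 by -0.67.

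Immediate early genes, which cells switch on within minutes of a signal, were higher with BBC1115 in most cases. Of 46 listed 42 were kept, 27 were higher (64.3%, against 14.2% of all kept genes), 6 lower (14.3%, against 29.7%) and 9 did not pass. The median was 0.652, and 13 were higher by at least 1. Between 19 and 30 were higher over the alternatives. Among the 20 factors 12 were higher, led by Junb at 33.4 and 31.1 RPKM with DMSO, 88.0 and 76.3 with OTX-015 and 259 and 228 with BBC1115 (log2 difference 1.56, limma adjusted p = 1.51e-06), whose locus overlaps Prdx2. Jun (1.29), Jund (1.29) and Fosb (1.24) were higher by more than 1 as well. The higher genes of this list include Klf4, which reached 1 RPKM in the BBC1115 libraries alone. It was kept only through the group where it is high, so its call is tied to the filter. Atf3 is shared with the ATF4 list, and Tob1 with the list of genes that BET inhibitors induce. Egr1, a factor induced by growth signals, measured 12.1 and 12.6 RPKM with DMSO, 178 and 165 with OTX-015 and 303 and 311 with BBC1115 and differed by 0.84, so that most of its distance from DMSO on the log2 scale was present with OTX-015. Among the 22 feedback genes 15 were higher and 4 lower. Dusp2, a phosphatase of MAP kinases, measured 7.53 and 7.41 RPKM with DMSO, 24.6 and 20.8 with OTX-015 and 74.4 and 57.8 with BBC1115, and Gadd45b, a stress sensor, 7.92 and 7.45 RPKM with DMSO, 24.2 and 21.2 with OTX-015 and 66.6 and 60.4 with BBC1115, both highest with BBC1115. Dusp6, the phosphatase that limits ERK, went the other way at 61.9 and 61.3 RPKM with DMSO, 106 and 95.5 with OTX-015 and 44.9 and 41.3 with BBC1115, above DMSO with OTX-015 and below it with BBC1115 (log2 difference -1.20, limma adjusted p = 2.73e-06). Spry2, another brake on ERK signalling, was lower at 18.6 and 18.0 RPKM with DMSO, 16.6 and 15.1 with OTX-015 and 8.80 and 8.21 with BBC1115. Outside these lists, Tnfrsf12a, the receptor for TWEAK, measured 14.8 and 14.4 RPKM with OTX-015 and 51.7 and 44.8 with BBC1115 and is listed at 0 in both DMSO libraries.

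Proliferation genes were lower with BBC1115 in part. In the mitosis list 62.5% were lower and in the DNA replication list 44%, against 29.7% of all kept genes, whose median difference was -0.094. Of 48 mitosis genes 30 were lower and 0 higher by limma, with a median of -0.325, between 26 and 40 lower over the scalings but 16 without OTX-015 replicate 1. Bub1b, a kinase of the spindle checkpoint, measured 36.2 and 42.8 RPKM with DMSO, 30.8 and 30.8 with OTX-015 and 13.7 and 15.5 with BBC1115, and Plk1, the polo kinase, 54.0 and 59.8 RPKM with DMSO, 46.7 and 40.7 with OTX-015 and 23.0 and 24.3 with BBC1115. In both the BBC1115 libraries lay below the others, and OTX-015 lay nearer to DMSO. Of 50 DNA replication genes 22 were lower and 3 higher (1 without OTX-015 replicate 2 or BBC1115 replicate 1), with a median of -0.196. Tk1, the thymidine kinase of S phase, whose locus overlaps Afmid, measured 69.0 and 65.0 RPKM with DMSO, 25.7 and 23.0 with OTX-015 and 8.35 and 8.59 with BBC1115 (log2 difference -1.42, limma adjusted p = 1.11e-06), and Mcm2 differed by -0.68.

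Among p53 targets and BCL2 genes the directions were mixed. Of 19 p53 and arrest genes 10 were higher (52.6%, against 14.2% of all kept genes) and 2 lower (10.5%, against 29.7%). Btg2 (1.29), Gadd45a (1.15) and Plk2 (1.09) were in front, and Cdkn1a differed by 0.87. Btg2 and Gadd45a are also in the immediate early list, and Sesn2 is also in the ATF4 list, so these lists are not separate sets. Of 12 BCL2 family genes 3 were higher (25%) and 5 lower (41.7%). The survival genes Bcl2l1, which encodes BCL-XL, at 13.03 and 12.9 RPKM with DMSO, 7.85 and 7.57 with OTX-015 and 3.26 and 3.05 with BBC1115, Bcl2 (-0.89) and Bcl2l2 (-0.80) were lower, and so were the death genes Bak1 (-0.87) and Bid (-0.67). Bcl2l11, which encodes BIM, was higher at 4.56 and 4.68 RPKM with DMSO, 20.3 and 18.7 with OTX-015 and 33.4 and 34.5 with BBC1115, as were Pmaip1 (0.65) and the survival gene Mcl1.

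Genes of ribosome assembly had a median difference near 0 between the compounds. Of 60 kept MYC targets of ribosome biogenesis 11 were higher (18.3%, against 14.2% of all kept genes) and 7 lower (11.7%, against 29.7%). The median difference was -0.005, and the list lay at -1.29 against the shared DMSO libraries with BBC1115 and at -1.30 with OTX-015. Over the scalings 8 to 21 were higher and 6 to 19 lower, with 7 higher without OTX-015 replicate 2 and 3 lower without OTX-015 replicate 1. Odc1, which starts polyamine synthesis, measured 135 and 130.4 RPKM with DMSO, 127 and 115 with OTX-015 and 240.1 and 228 with BBC1115 and Ltv1, a factor of small subunit assembly, 50.03 and 48.6 RPKM with DMSO, 15.1 and 14.9 with OTX-015 and 9.11 and 7.92 with BBC1115, so that these members differed in opposite directions. Of 75 kept cytosolic ribosomal proteins 45 were higher and 0 lower by limma, with a median of 0.357, but this count rested on the libraries and the scaling. The median exon length of the list was 1781 bases. BBC1115 replicate 1 minus replicate 2 had a median log2 value of 0.146 in the shortest of 4 groups of genes by exon length and -0.094 in the longest. The count of higher ribosomal proteins was 74 with upper-quartile scaling and 58 with TPM scaling. It was 7 without OTX-015 replicate 1, 1 without OTX-015 replicate 2, 3 without BBC1115 replicate 1 and 72 without BBC1115 replicate 2, and 10 under quantile normalization. Of 59 oxidative phosphorylation genes 4 were higher and 3 lower, of 75 mitochondrial ribosomal proteins 6 and 15, and of 33 proteasome genes 1 and 5, with medians of 0.119, -0.059 and -0.014. In the same order the shares were 6.78% and 5.08%, 8% and 20%, and 3.03% and 15.2%, against 14.2% and 29.7% of all kept genes. Leaving out 1 library of a compound gave 0 to 16 higher oxidative phosphorylation genes (0 without BBC1115 replicate 1, 16 without BBC1115 replicate 2, 1 without either OTX-015 library). Without OTX-015 replicate 1 there were 7 lower mitochondrial ribosomal proteins and 0 lower proteasome genes, without OTX-015 replicate 2 there were 3 higher mitochondrial ribosomal proteins, and without BBC1115 replicate 2 there was 1 lower proteasome gene.

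**Figure D5:**
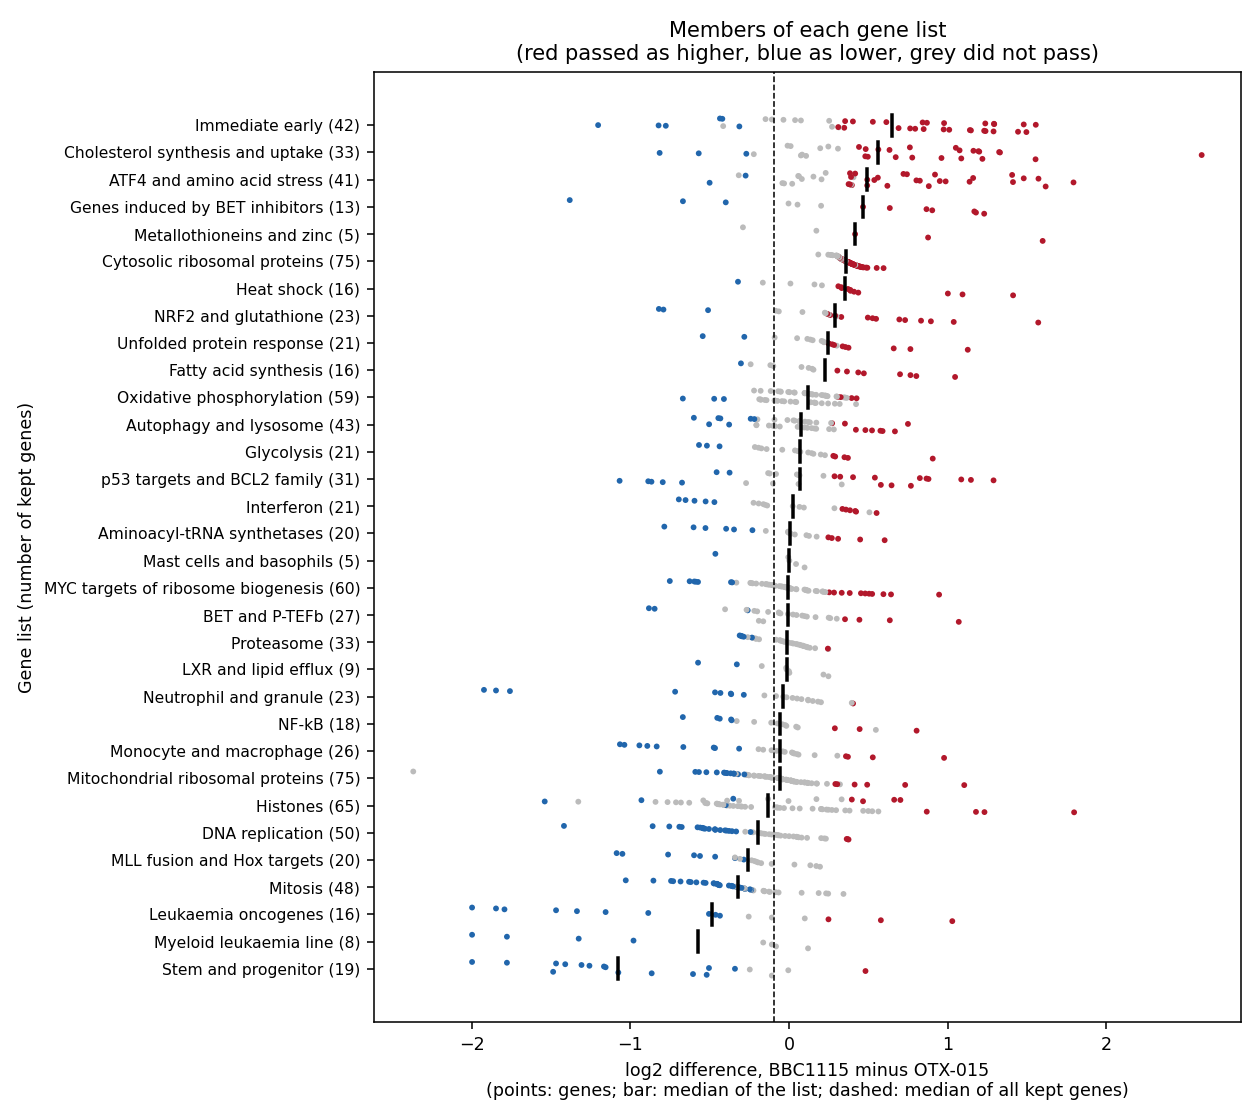
Log2 difference between BBC1115 and OTX-015 (horizontal axis) of each kept member of each gene list with at least 5 kept genes (rows, ordered by median), with red points for members that passed as higher, blue for lower and grey for neither. Black bars are medians, and the dashed line is the median of all kept genes at -0.094. Immediate early, cholesterol and ATF4 genes stand at the top, stem and progenitor genes at the bottom, and MYC targets of ribosome biogenesis sit at 0.

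Some genes that passed in all 3 comparisons lay on opposite sides of DMSO with the 2 compounds. They were chosen by their values and are described without a test. Above DMSO with BBC1115 and below it with OTX-015 were Herpud1, Slc16a1, the lactate carrier, at 20.8 and 19.2 RPKM with DMSO, 17.1 and 15.8 with OTX-015 and 33.6 and 29.8 with BBC1115, and Ifrd1, a co-regulator of transcription, at 55.3 and 48.7 RPKM with DMSO, 44.6 and 42.5 with OTX-015 and 89.8 and 79.0 with BBC1115. Ppif, Ppa1, Ankrd10, Dnajc25 and Txndc11 completed the 8 genes with the largest lesser distance from DMSO. Below DMSO with BBC1115 and above it with OTX-015 were Dusp6, Clec2i, a lectin that serves as a ligand of a natural killer cell receptor, at 32.5 and 32.9 RPKM with DMSO, 57.9 and 56.7 with OTX-015 and 25.9 and 24.4 with BBC1115, and Xdh, the xanthine dehydrogenase, at 6.02 and 8.52 RPKM with DMSO, 12.0 and 11.0 with OTX-015 and 4.13 and 5.56 with BBC1115. Map3k1, Foxo4, Nlrc4, Helq and Tmc8 completed the 8 on that side.

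Other genes changed strongly with both compounds and to about the same level, again chosen by their values. Of 119 genes not listed at 0 that differed from DMSO by at least 2 on the log2 scale with both compounds and reached 5 RPKM, the 8 nearest were Hist1h1c, Clec12a, Mettl1, Ifrd2, Mtfp1, Cela1, Ccl4 and Dkc1. Hist1h1c, a linker histone, measured 4.71 and 4.30 RPKM with DMSO, 31.2 and 30.99 with OTX-015 and 32.1 and 30.0 with BBC1115, with a 95% interval of the difference of -0.20 to 0.19. Dkc1, the pseudouridine synthase of ribosomal RNA, whose locus overlaps Mpp1, measured 74.6 and 75.3 RPKM with DMSO, 11.7 and 11.2 with OTX-015 and 11.0 and 11.2 with BBC1115 (interval -0.22 to 0.13). Clec12a, a myeloid lectin receptor, measured 119 and 109 RPKM with DMSO, 16.2 and 15.3 with OTX-015 and 17.9 and 13.8 with BBC1115 (interval -0.25 to 0.24), and Ccl4, a chemokine, 37.3 and 37.3 RPKM with DMSO, 7.85 and 7.16 with OTX-015 and 7.51 and 7.002 with BBC1115 (interval -0.23 to 0.15). For these genes the compounds overlapped or nearly met, while both stood far from DMSO.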

How the data were processed

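Total RNA of RN2 cells was taken with Qiazol and made into directional mRNA libraries, per the labels' protocols. STAR, Cufflinks and mm10 appear, unversioned, in the submitters' processing notes, which do not say if strand was used in counting. The deposited values are the authors' RPKM, in 8 columns that were each used.

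Genes with at least 1 RPKM in at least 2 libraries were kept. Values were tested as log2(RPKM + 1) with limma 3.58.1 in R 4.3.3, with a variance trend, all 8 libraries in 1 fit and no replicate block (4 residual and 6.81 prior degrees of freedom), two-sided, with Benjamini-Hochberg adjustment over the kept genes and a threshold of 0.05. A log2 difference is from this model, and a fold is the ratio of group means of RPKM, so the pseudocount of 1 makes the former smaller for low genes. With 2 libraries per group, values are given per library. The method was tested on simulated data. RPKM keep no read counts, so depth was estimated from the lowest values. An exact 0 can be a failed estimate, and 40 called genes are at 0 in at least 1 library of either compound. Coordinates are from GENCODE M21 on GRCm38.

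The comparison, the members and the 36 gene lists were chosen with earlier results of these data known. Named genes are Insig1, Chac1 and a panel of 12 genes, the 15 largest differences in each direction, up to 4 called members of each list, 8 genes in each direction on opposite sides of DMSO, and the 8 genes with the smallest difference among those far from DMSO with both compounds, limited to genes not listed at 0 after the data were seen. The alternatives followed 158 genes of this rule and 92 further genes. Some genes of the lists are counted but not reported here by name. Any other gene in the text was also chosen after its values were seen. Same-numbered libraries were not paired (deviations of replicate 1 correlated by 0.0494 between BBC1115 and OTX-015, by 0.524 between BBC1115 and DMSO and by -0.0341 between OTX-015 and DMSO). Alternatives were other pseudocounts, filters, scalings, the block, the variance trend, the compared libraries alone and each library left out. Removing the length trend, and removing genes listed at 0 with either compound, were added after the data were seen.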

Additional observations from a re-analysis of the deposited data

How the results depend on the processing

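Of 250 named genes, 196 kept their call and direction in every alternative, and in each alternative every main call that was still made had the same direction. The number of higher genes was 2123 with upper-quartile scaling, 2269 with quantile normalization and 923 with TPM scaling, against 1413, and lower genes numbered 2741, 2339 and 4271 there, against 2964. Leaving out 1 library gave 798 to 1651 higher and 1869 to 3256 lower genes, with the fewest higher without OTX-015 replicate 2 (798) and BBC1115 replicate 1 (893) and the fewest lower without OTX-015 replicate 1 (1869). Genes higher by at least 1 numbered 168 with a pseudocount of 0.1 and 53 with a mean of at least 5 RPKM, against 92. Genes lower by at least 1 numbered 584 with a pseudocount of 0.1, 139 with quantile normalization and 417 with TPM scaling, against 261. Lower genes of the ATF4 list numbered 1 without the filter and with quantile normalization, and 1 to 3 with a library left out, against 2. With quantile normalization Nras turned to -0.011 and Fdps, which did not pass, to -0.108 (limma adjusted p = 0.0402). Brd3 (0.0386), Shmt2 (0.0328) and Srebf1 (0.0362) passed in limma with TPM scaling, Eif2ak4 with quantile normalization (0.018) and Nfe2l2 with upper-quartile scaling (0.0405). The causes were not tested.

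The replicate numbers were not taken to pair the libraries, and a fit with the replicate block gave 1616 higher and 3125 lower genes, with 74 against 45 higher cytosolic ribosomal proteins. With 2 libraries per group the p-values measure the spread between replicates pooled over all groups, which share 1 line. This spread was unequal. The median absolute log2 difference between replicates was 0.0598 with RVX-208, 0.129 with OTX-015, 0.116 with BBC1115 and 0.138 with DMSO. A fit of the 4 compared libraries alone called 1433 genes higher and 2884 lower. Depth was estimated only, so no counting error is given, and low genes such as Erg or Klf4 rest on few reads.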

Other observations

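Counts of histone genes depended on the libraries. In the main fit 12.3% were higher and 6.15% lower, against 14.2% and 29.7% of all kept genes. Of 65 kept histone genes 8 were higher with BBC1115 and 4 lower, and these counts were 6 and 26 without OTX-015 replicate 1 and 20 and 0 without OTX-015 replicate 2. Hist1h2bc, which is also in the list of genes that BET inhibitors induce, measured 9.36 and 9.80 RPKM with DMSO, 69.6 and 62.2 with OTX-015 and 169 and 134 with BBC1115, a log2 difference of 1.18 between the compounds, with no overlap. Of the other higher genes, Hist1h2bq measured 0.707 and 0.912 RPKM with OTX-015 and 3.57 and 2.94 with BBC1115. Hist2h2aa2 was at 0 in both OTX-015 libraries and at 3.74 and 1.55 RPKM with BBC1115. Neither would pass the filter without the BBC1115 libraries, where they are high, so both calls are tied to it.

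Signalling, lysosome and glycolysis genes were mixed. Over all kept genes 14.2% were higher and 29.7% lower. These shares were 28.6% and 23.8% in the interferon list and 16.7% and 27.8% in the NF-kB list. In the autophagy and lysosome list they were 20.9% and 16.3%, and in the glycolysis list 23.8% and 14.3%. Of 21 kept interferon genes 6 were higher (1 without OTX-015 replicate 2, 3 without BBC1115 replicate 1) and 5 lower, with Irf7 at 1.37 and 1.71 RPKM with DMSO, 8.95 and 7.18 with OTX-015 and 12.6 and 11.8 with BBC1115. Irf7, whose locus overlaps Phrf1, was above DMSO with both compounds and highest with BBC1115. Of 18 kept NF-kB genes 3 were higher (1 without OTX-015 replicate 2) and 5 lower, among them Nfkb1 at 35.7 and 39.2 RPKM with DMSO, 23.3 and 21.8 with OTX-015 and 13.3 and 14.3 with BBC1115. In the autophagy and lysosome list 9 of 43 kept genes were higher and 7 lower (3 without OTX-015 replicate 1), and Ctsl, a lysosomal protease, measured 15.4 and 14.8 RPKM with DMSO, 48.0 and 46.3 with OTX-015 and 84.3 and 75.7 with BBC1115. Of 21 kept glycolysis genes 5 were higher (2 without OTX-015 replicate 2 or BBC1115 replicate 1, 3 without BBC1115 replicate 2) and 3 lower, led by Slc16a1 on the higher side and Hk1, a hexokinase, at 26.2 and 33.7 RPKM with DMSO, 28.0 and 25.7 with OTX-015 and 16.3 and 19.3 with BBC1115, on the lower.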
